A study of Mus musculus with 4 samples.

Results

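Among the Wapal-binding sites of mouse embryonic stem cells (ESCs), 1027 of 8323 lay within 10 kb of another site, measured from centre to centre, and are described here as clustered sites. They were chosen by their spacing in the deposited list of regions, so their number and spacing are a description and not a finding. Wapal was mapped by biotin-mediated ChIP-seq, in which BirA, a bacterial biotin ligase, attaches biotin to the tag inside the cell and the protein is then pulled down with its DNA on streptavidin beads. The samples were 2 FB Wapal clones (ESCs with BirA and a Flag- and biotin-tagged Wapal made from a plasmid, each line grown from a single colony), 1 line of ESCs with BirA and no tagged Wapal, and 1 input of sheared genomic DNA labelled as coming from the tagged ESCs. All ChIP lines therefore carried BirA, and the study describes the tagged protein as expressed below the level of endogenous Wapal. The regions of both clones were deposited as 1 list, so no spread between clones could be computed. Each region has a position on mm9 and a score from the peak caller MACS, which is 10 times the negative decimal logarithm of the p-value. Of the 8497 regions in the list, 174 that shared at least 1 bp with any of the 266 BirA regions were removed. The depth behind a single site is unknown because no read counts were given, and the lists hold no expression against which the cell type could be checked.

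Wapal releases the cohesin ring from chromatin. Cohesin forms loops of DNA and is held at sites bound by CTCF, a zinc finger protein whose motif is not the same on both strands, so that every CTCF site has a direction. Loops that cohesin holds in mammalian cells are known to join CTCF motifs that face each other, called convergent. Neighbouring motifs can also lie on the same strand, or face away from each other, called divergent.

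Sequences with the CTCF core motif are given for sites of several clusters, chosen because together they show each arrangement of neighbouring motifs. The motif was searched on both strands of each region with at most 1 mismatch, and overlapping matches were allowed. Each sequence is read from mm9, 5′ to 3′ on the strand that holds the motif, with the 12 bases of the core motif in capitals and 9 bases on either side. In the pair near Wnt6, a gene for a secreted Wnt ligand, the motifs were divergent, with the left one on the reverse strand and the right one on the forward strand.
Wnt6 site 1 (reverse strand, chr1:74806596-74806625): tcctagaaaCCAGCAGAGGGCatcatatcc
Wnt6 site 2 (forward strand, chr1:74809829-74809858): tgccatttgCCAGGAGATGGCgctatggcg
In the pair whose nearest protein-coding gene is Pax1, both motifs were on the reverse strand.
Pax1 site 1 (reverse strand, chr2:147131230-147131259): atccatattCCACTGGAGGGCgctaaagca
Pax1 site 2 (reverse strand, chr2:147133662-147133691): ccaagccgaCCACAAGATGGCagcctttcc
All 3 sites near Foxo1, a forkhead transcription factor gene, had the motif on the forward strand.
Foxo1 site 1 (forward strand, chr3:52057986-52058015): ccttggaaaCCACTAGATGGCagccaagcc
Foxo1 site 2 (forward strand, chr3:52061749-52061778): cggattctaCCAATAGGTGGCaccatctgc
Foxo1 site 3 (forward strand, chr3:52066497-52066526): tctcaatgaCCAGAAGGTGGCagcggatcc
Of the 3 sites near Perp, the first and the second had their best match on the reverse strand and the third on the forward strand, and the first and the second also held a match on the forward strand.
Perp site 1 (reverse strand, chr10:18624096-18624125): accaatgtgCCACCAGGTGGCgacagagga
Perp site 2 (reverse strand, chr10:18630931-18630960): gagaacaagCCTCTAGAGGGCagccttgta
Perp site 3 (forward strand, chr10:18636991-18637020): ataaattgaCCACCAGATGGCagcatatga
In an intron of Lsamp, 2 of the 3 sites held the motif, and their best matches were divergent, although the first site also held a match on the forward strand.
Lsamp site 1 (reverse strand, chr16:42165227-42165256): catctctgtCCACCAGGTGGCaacagtgag
Lsamp site 2 (forward strand, chr16:42170031-42170060): aggacatagACAGCAGGTGGCgccagagac
The pair in Commd1 was convergent.
Commd1 site 1 (forward strand, chr11:22850314-22850343): cccacagagCCAGCAGAGGGCgtcggagcc
Commd1 site 2 (reverse strand, chr11:22857307-22857336): agtgtgggcCCAGTAGGTGCCattgcaatg

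**Figure D1:**
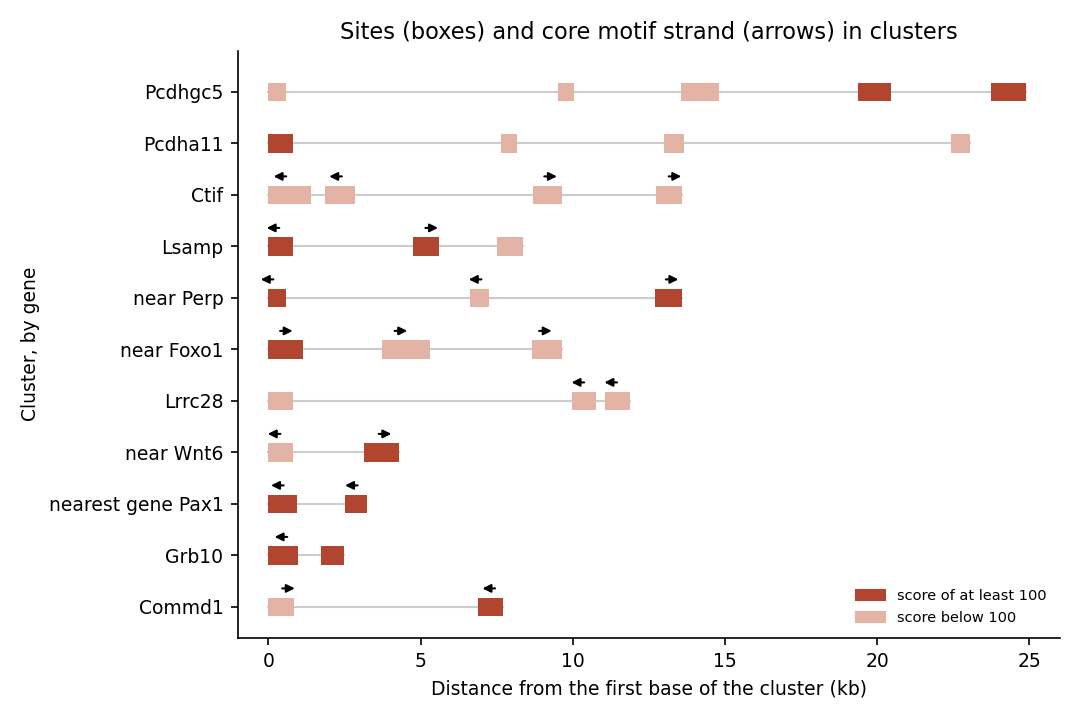
Map of clusters named in the text, with the distance from the first base of each cluster in kb on the x axis and 1 cluster per line. Boxes are sites, dark where the score was at least 100, and arrows point along the strand of the core motif where a site held one; the clusters in Pcdhgc5 and Pcdha11 show no arrow, and the arrows face each other in Commd1.

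The 1027 clustered sites were 12.3% of all sites (95% Wilson interval 11.6 to 13.1%, which like all intervals given here covers counting error only). They formed 491 clusters, defined as chains in which each site lay within 10 kb of the next. Most clusters were pairs: 450 held 2 sites, 38 held 3, 2 held 4 and 1 held 5. The clusters spanned 1511 to 24878 bp from the first to the last base, with a median of 6289 bp. A cluster lay at a median of 94.4 kb from the nearest site outside it, and the other sites lay at a median of 89.9 kb from their nearest site.

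Within clusters there were 536 pairs of neighbours. Their centres lay 791 to 9984.5 bp apart, with a median of 5011 bp. Between 1 and 10 kb the number of pairs in each kb ran from 45 to 75, so no single spacing stood out. Just inside the limit, from 9 to 10 kb, there were 61 pairs, and just outside it, from 10 to 11 kb, there were 32. The bins next to these differed less, with 49 pairs from 8 to 9 kb and 43 from 11 to 12 kb. The edges of neighbouring regions were separated by 1 to 9264 bp, with a median of 4023 bp. In 38 pairs this gap was at most 500 bp, and in those a single wide region divided by the peak caller and 2 separate sites cannot be told apart.

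**Figure D2:**
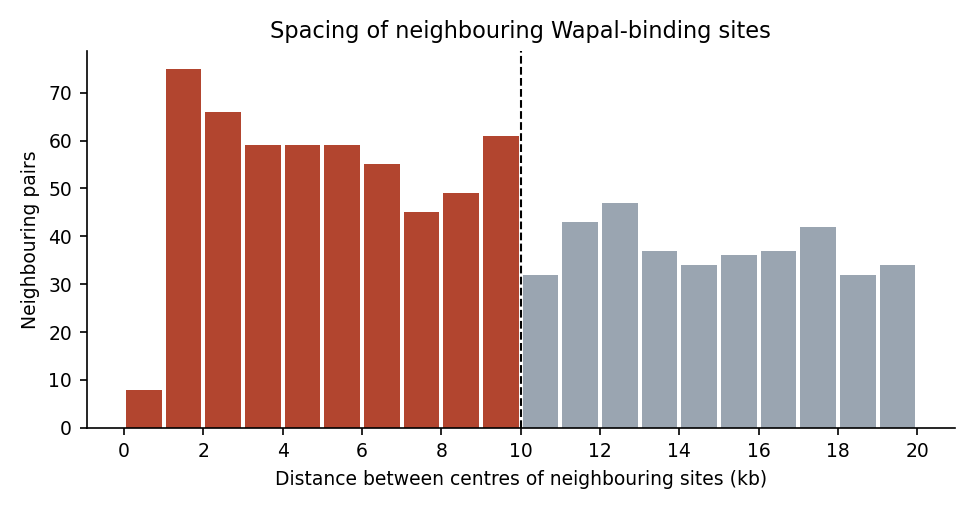
Number of neighbouring pairs of Wapal-binding sites (y axis) by the distance between their centres in bins of 1 kb (x axis). Red bars are the pairs within the 10 kb limit, marked by the dashed line, and grey bars are pairs beyond it. The last red bin holds 61 pairs and the first grey one 32, and the bins next to these hold 49 and 43.

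The closest pair lay in an intron of Cdh6, a cadherin gene, with centres 791 bp apart and a gap of 71 bp. Its sites had scores of 120 and 100.4, and only the second held the core motif. Outside Ywhah, 5473.5 bp from the gene, a pair with centres 863 bp apart had scores of 146 and 86.9. The gap between its regions was 13 bp. In a cluster of 3 whose nearest protein-coding gene was Mtap2, the last pair had centres 879.5 bp apart, and the sites scored 79.65, 52.86 and 89.96. In each of these closest pairs, 1 region held the core motif and the other did not.

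At the other end, the pairs just inside the limit lay near Gm10858 (9984.5 bp, with scores of 113 and 53.0), in Lrrc28 (9957 bp, with scores of 54.0 and 51.0) and near Gm853 (9955.5 bp, with scores of 94.2 and 70.7). The Lrrc28 pair was the first link of a cluster of 3, whose last site scored 82.1. Just outside the limit were pairs near Pknox2 (10009 bp, with scores of 57.9 and 105) and in Rph3al (10092.5 bp, with scores of 56.2 and 80.4). The scores of these pairs ran from 51.0 to 113 inside the limit and from 56.2 to 105 outside it.

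The cluster with the most sites, 5, lay in Pcdhgc5, the name under which the annotation used here holds the gamma protocadherins. These are cell surface proteins of neurons that are made from a row of alternative first exons, each with its own promoter. The cluster spanned 37901406 to 37926283 on chromosome 18, or 24878 bp. From left to right its sites had scores of 58.5, 63.3, 79.1, 121 and 340, and the scores rose along the row. Of the 5 sites, 3 had their centre within 2 kb of a TSS, at distances of 55, 154.5 and 485 bp.

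The alpha protocadherins, annotated as Pcdha11, held a cluster of 4 sites spanning 23040 bp, from 37157027 to 37180066. The scores were 108, 76.2, 58.5 and 88.9. All 4 centres lay between 56 and 147 bp from an annotated TSS, so each site sat at a promoter. A second cluster in Pcdha11 was a pair with scores of 64.6 and 59.5, both in an intron. Among the beta protocadherins, which are separate genes of a single exon, there were 3 clusters. The pair at Pcdhb10 and Pcdhb11 had scores of 53.1 and 80.9, with centres 20.5 and 62 bp from the TSSs. The pair at Pcdhb16 and Pcdhb17 had scores of 53.4 and 57.9, with centres 50 and 46 bp from the TSSs. The cluster of 3 from Pcdhb19 to Pcdhb21 had scores of 88.5, 51.4 and 89.9.

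In all, 25 sites lay within 10 kb of the protocadherin genes, and 18 of them were clustered, in 6 clusters. Of these 18 sites, 14 were in promoters, against a background of 9.90% of all Wapal-binding sites with their centre within 2 kb of a TSS. None of the 18 held the core motif with at most 1 mismatch, and 9 held it with at most 2 (the background over all sites is 74.5% with at most 1 mismatch and 96.5% with at most 2). The other 7 sites in this stretch included 1 with the motif. Neighbouring sites of the Pcdha11 clusters shared 11.1 to 15.8% of their 12-base words, and the first pair in Pcdhgc5 shared 24.5%. Only 6 of the 536 neighbouring pairs shared over 10%, and the median over all pairs was 0.

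The other cluster of 4 lay in an intron of Ctif, a gene for a factor that acts in translation of newly exported mRNA, and spanned 75757273 to 75770877 on chromosome 18. Its sites had scores of 97.5, 88.5, 52.5 and 53.2. Each held an exact core motif, on the reverse strand in both left sites and on the forward strand in both right sites. The second site held 7 matches, the most in any clustered site, where other sites held at most 6.

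Among the clusters of 3, the one in an intron of Lsamp, a cell adhesion gene of neurons, had the highest summed score, with sites of 312, 179 and 83.0. It spanned 42164881 to 42173240 on chromosome 16. The next, 47.4 kb from Perp, a gene for a membrane protein of desmosomes, had sites of 123, 84.3 and 339 over 13594 bp on chromosome 10. The lowest score lay at the third site of the Lsamp cluster and at the middle site of the Perp cluster.

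The strongest cluster by its lowest score was the pair in an intron of Grb10, an imprinted gene for an adaptor protein that restrains insulin and growth factor signalling. Its sites, at chr11:11872993-11873974 and chr11:11874724-11875470, had scores of 562 and 200.4, with centres 1613.5 bp apart. The first held the motif on the reverse strand and the second held none with at most 1 mismatch. The pair at Gm9766 had scores of 190 and 202, and its first site also lay in Pln, the gene for phospholamban. Both of its sites were in promoters, and neither held the core motif with at most 1 mismatch. The pair nearest to Pax1, in exons of other annotated transcripts, had scores of 176 and 191. A pair 1385.5 bp from St3gal1, a sialyltransferase gene, had scores of 227 and 174, and one 7637.5 bp from Map3k9, a kinase gene, had scores of 299 and 157. Both of the motifs near Map3k9 were on the forward strand.

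Clusters were looked for within 10 kb of the genes of 15 lists. Across all 22367 protein-coding genes, 1.71% had a clustered site within 10 kb of the gene body, and 21.8% had any site. Of the 24 clustered protocadherin genes in the annotation, 12 had a clustered site. Of 39 Hox genes, 22 had a site within 10 kb and 0 had a clustered one. Likewise 0 of 21 pluripotency factor genes, 0 of 31 genes of the Polycomb complexes, 0 of 21 genes of cohesin, its regulators and Ctcf, 0 of 18 Sox genes, 0 of 22 lineage factor genes, and 0 of 1113 olfactory receptor genes had one. Any site was found for 8 of the pluripotency, 8 of the Polycomb, 7 of the cohesin, 4 of the Sox, 3 of the lineage factor and 35 of the olfactory receptor genes. None of the 9 loci named in the study, such as Adm, Snai2 and c-Fos, had a clustered site, although 4 had a site. Apart from the olfactory receptors, all lists with a count of 0 held 39 genes or fewer. A background of 1.71% gives less than 1 gene there, so these counts of 0 are close to that background. It does not allow for how many genes of a list had any site. For Hox genes this was 22 of 39, against 21.8% of all genes. Among the 4881 protein-coding genes with any site, 383 had a clustered one. Of the olfactory receptor genes, only 35 of 1113 had any site to begin with.

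The imprinted genes included 3 of 45 with a clustered site, each with its own cluster. Besides Grb10 these were Commd1, with scores of 64.1 and 243, and Gnas, with scores of 80.0 and 75.8. The Commd1 pair lay 6877.5 bp apart with its stronger site 221 bp from the Commd1 TSS. Gnas codes for the alpha subunit of the stimulatory G protein, and its pair lay in an intron with centres 1194.5 bp apart.

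Single genes of other lists also had clusters. Wnt6, 1 of 19 Wnt genes, had a pair with scores of 97.0 and 126, the nearer centre 8529 bp from the gene. Fgf1, 1 of 22 Fgf genes and coding for a growth factor, had a pair with scores of 129 and 310 in the overlapping gene Arhgap26, the nearer centre 1202 bp from the Fgf1 TSS. The Fgf1 motifs were divergent, on the reverse strand at the left site and the forward strand at the right one. Foxo1, 1 of 43 forkhead genes, had 3 sites with scores of 118, 52.5 and 67.5, ending 5494.5 bp from the gene when measured from the last centre. Mycl1, a Myc family gene and 1 of 16 in its list, had a pair with scores of 55.0 and 89.6, both with the motif on the reverse strand. Among 67 replication-dependent histone genes, 5 had a clustered site, and all 5 shared 1 cluster on chromosome 13 with scores of 136, 61.3 and 55.3. None of these 3 sites held the core motif with at most 1 mismatch. It was 1 of 4 clusters with a site within 10 kb of a BirA region, and the part of BirA background in it was not tested. A BirA region was this close to 7 clustered sites (0.682%) and to 0.397% of the other sites.

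The orientation of the core motif was compared between neighbouring sites that both held it. In clusters there were 284 such pairs. Only 16 of them, or 5.63% (95% interval 3.497 to 8.955%), were convergent, against a background of 26.5% over all neighbouring pairs in the genome. Beyond clusters, with centres over 10 kb apart, 27.8% of 4357 pairs were convergent (95% interval 26.5 to 29.2%). Motifs in clusters were on the same strand in 160 pairs, or 56.3% (50.5 to 62.0%), where the background is 46.0%, and divergent in 108, or 38.0% (32.6 to 43.8%), where the background is 27.5%. Pairs beyond clusters were on the same strand in 45.4% and divergent in 26.8%. The same-strand pairs were divided almost evenly between the strands, with 83 on the forward and 77 on the reverse strand. With 1 list no test over samples was possible, so these differences are given as counts with their intervals. The intervals for convergent pairs in and beyond clusters did not overlap, but they treat pairs as independent. Consecutive pairs can share a site, so these intervals may be too narrow.

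The arrangement changed with distance. Up to 2 kb, 69.8% of 43 pairs were on the same strand (54.9 to 81.4%), 18.6% were divergent and 11.6% convergent. From 2 to 5 kb, 63.2% of 87 pairs were on the same strand, 31.0% divergent and 5.75% convergent. From 5 to 10 kb, same-strand pairs (48.7% of 154) and divergent pairs (47.4%) were about equally frequent, and 3.90% were convergent (1.80 to 8.24%). Divergent pairs were thus more frequent the farther apart the neighbours in a cluster lay, and same-strand pairs less so. Outside clusters, convergent pairs made up 7.73% of the 207 pairs from 10 to 20 kb, 15.7% of 523 from 20 to 50 kb, 27.9% of 1756 from 50 to 200 kb and 33.4% of 1871 beyond 200 kb. Along a row of motifs, convergent and divergent changes of strand alternate, and over all pairs their shares were 26.5 and 27.5%. The larger convergent share at long distance is therefore tied in part to the small one at short distance. Whether the convergent share changes in a step at 10 kb was not tested, and overlap of intervals cannot decide it. On either side of the limit the shares were 3.90% from 5 to 10 kb and 7.73% from 10 to 20 kb (4.81 to 12.2%).

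**Figure D3:**
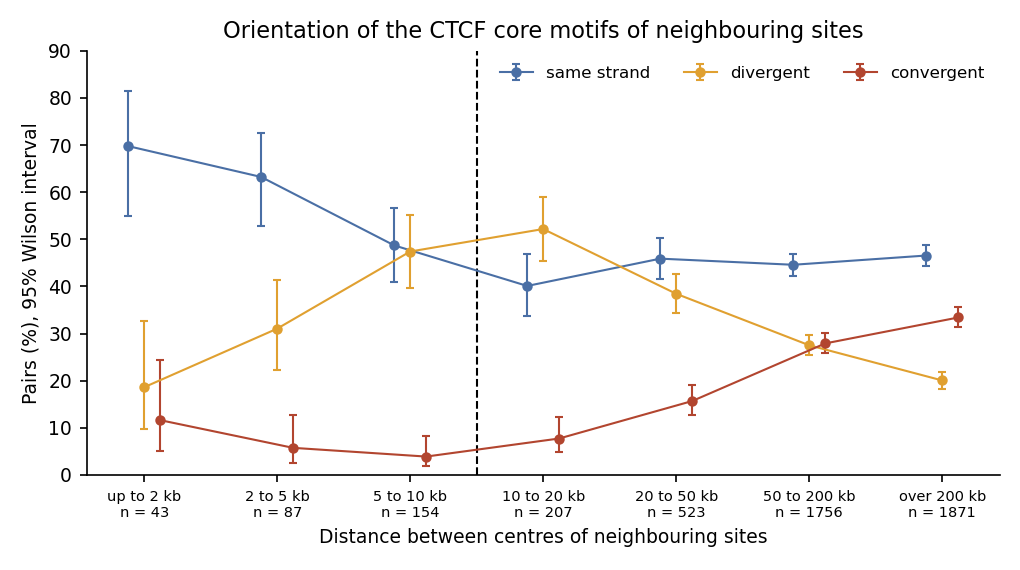
Share of neighbouring pairs of sites (y axis, percent with 95% Wilson intervals) whose core motifs lie on the same strand, diverge or converge, by the distance between their centres (x axis, with the number of pairs). The dashed line marks 10 kb; convergent pairs are between 3.90 and 11.6% to its left and reach 33.4% beyond 200 kb, while same-strand pairs fall from 69.8% up to 2 kb to 48.7% from 5 to 10 kb.

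Larger clusters hold some of the same pairs and are described here along their whole length. Of the 41 clusters with 3 or more sites, 15 had a core motif in every site. Only the best match of each site was used here. In 4 of these clusters all best matches were on 1 strand, as near Foxo1. In 9 the best matches on the reverse strand lay to the left of those on the forward strand, as in Ctif and near Perp. The outer best matches thus pointed away from the cluster. Near Perp, the first and the second site also held a match on the forward strand, which this order leaves out. A convergent pair was found in 2. Where a pair over 10 kb apart included at least 1 clustered site, 37.9% of 517 pairs were convergent (33.8 to 42.2%). Between 2 sites that were not clustered it was 26.5% of 3840 (25.1 to 27.9%). The median distances in these groups of pairs were 179 and 165 kb. Because convergent and divergent changes of strand alternate, the share of 37.9% is also tied to the orientation inside clusters and is not a separate finding.

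The convergent pairs in clusters had centres at a median of 3165 bp, same-strand pairs at 4665.5 bp and divergent pairs at 6112.25 bp. Besides Commd1, the convergent pairs included those nearest to Cript (scores of 66.3 and 327) and Paqr3 (scores of 130 and 149), chosen for mention once the values were known. In 4 of the 16 both motifs were exact. When pairs in which a site held motifs on both strands were left out, 4.31% of pairs in clusters were convergent.

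The core motif itself was about as frequent in clustered sites as elsewhere. It was found in 742 clustered sites, or 72.2% (69.4 to 74.9%), and in 74.8% of the other sites (73.8 to 75.8%). In regions of the same width 5 kb from the clustered sites, 11.4% of 1814 held it. Away from the protocadherin genes, 73.5% of the clustered sites had the motif. Of the 450 pairs, 246 had the motif in both sites, 172 in 1 and 32 in neither. In the highest-scoring site of each cluster it was present in 73.9% (69.9 to 77.6%), and in the remaining sites in 70.7% (66.7 to 74.4%), so the intervals overlapped. Matches lay at a median of 43 bp from the centre of clustered sites and 41 bp from the centre of the others.

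Clustered sites scored like the other sites. Their median score was 82.9 (95% interval of the median 81.1 to 86.0), and that of the other sites was 81.2 (80.0 to 82.2). Scores of at least 100 were reached by 34.1% of clustered and 34.6% of other sites, and the background over all sites is 34.6%. The clustered scores ran from 50.0 to 562. Within clusters the sites were unequal. The highest-scoring site of each cluster had a median of 109 and the remaining sites a median of 68.4, which follows in part from ranking them. The difference between the highest and the lowest score of a cluster had a median of 34.6 and reached 361. In 59 clusters (12.02%) every site scored at least 100, and in 212 (43.2%) none did.

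**Figure D4:**
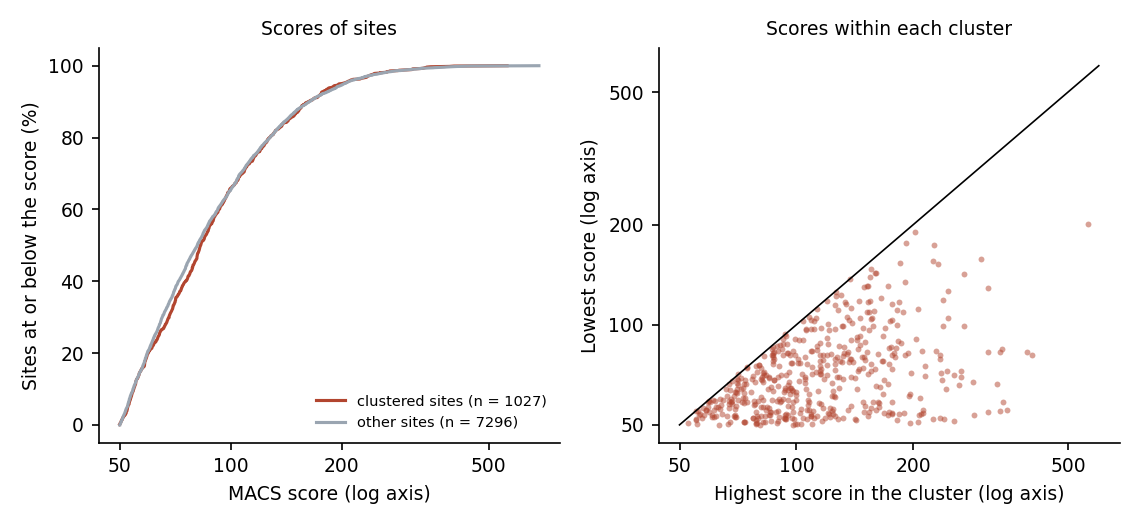
Left, the share of sites (y axis, percent) at or below each MACS score (x axis, log scale) for the 1027 clustered sites and the 7296 other sites, whose curves nearly coincide. Right, the lowest against the highest score of each of the 491 clusters (both axes log scale), with a line where the scores are equal; the pair in Grb10, at 562 and 200.4, lies farthest to the right.

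The clustered regions were slightly wider, with a median of 836 bp (822 to 846) against 809 bp (806 to 813). These intervals did not overlap, but width also sets how close 2 centres can lie. When only sites with a score of at least 100 were kept and clustered anew, the medians were 846.5 and 846 bp. That run had 134 clustered sites, so it does not compare the clustered sites described here at like score. The GC content had a median of 44.8% (44.5 to 45.1%) in clustered sites and 44.3% (44.1 to 44.4%) in the others.

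With respect to genes, 28.4% of the clustered sites had their centre in an intron (25.8 to 31.3%), against 34.0% of the other sites (32.9 to 35.1%). Extragenic regions held 57.2% of clustered sites (54.1 to 60.2%) and 53.7% of the others (52.6 to 54.8%). Exons held 3.70% (2.71 to 5.04%) and 2.49% (2.16 to 2.88%). The intervals for introns did not overlap, and those for extragenic regions and exons did. Sites of a cluster often share their place but were counted singly. The intervals for clustered sites are therefore too narrow, and their overlap decides nothing here. Promoters, within 2 kb of a TSS on either side, held 10.7% of clustered sites (8.96 to 12.8%) and 9.79% of the others (9.13 to 10.5%). This order turned with a promoter of 5 kb, with 19.5% of clustered and 21.4% of other sites, and without chromosome 18 the shares were 9.906 and 9.914%. The median distance to the nearest TSS was 15877 bp for clustered sites and 16296 bp for the others.

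Of the 491 clusters, 148 lay wholly inside 1 protein-coding gene, 49 had some of their sites in such a gene and 294 had none. A protein-coding TSS lay between the outer centres of 36 clusters (7.33%). In 85 clusters at least 1 site was in a promoter, and in 17 every site was. The genes that held a whole cluster numbered 141 and had a median length of 139.9 kb. Protein-coding genes with any site inside had a median length of 84.9 kb. A gene needs more than 1 site to hold a cluster and only 1 to be in the second group. That requirement alone selects longer genes, so the lengths do not show a preference of clusters.

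Between 9.68 and 16.0% of the sites on each autosome other than chromosome 18 were clustered. Chromosome 18 had the highest share, with 68 of 313 sites, or 21.7% (17.5 to 26.6%). Its density of 3.45 sites per Mb was within the range of the other autosomes. The interval overlapped that of chromosome 13, the next highest (12.7 to 19.9%). Away from the protocadherin genes, 50 of the 288 sites on chromosome 18 were clustered, or 17.4% (13.4 to 22.2%). On the X chromosome, where sites were sparse at 0.954 per Mb, 6 of 159 were clustered, or 3.77% (1.74 to 7.99%). Without chromosome 18, 11.97% of all sites were clustered.

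**Figure D5:**
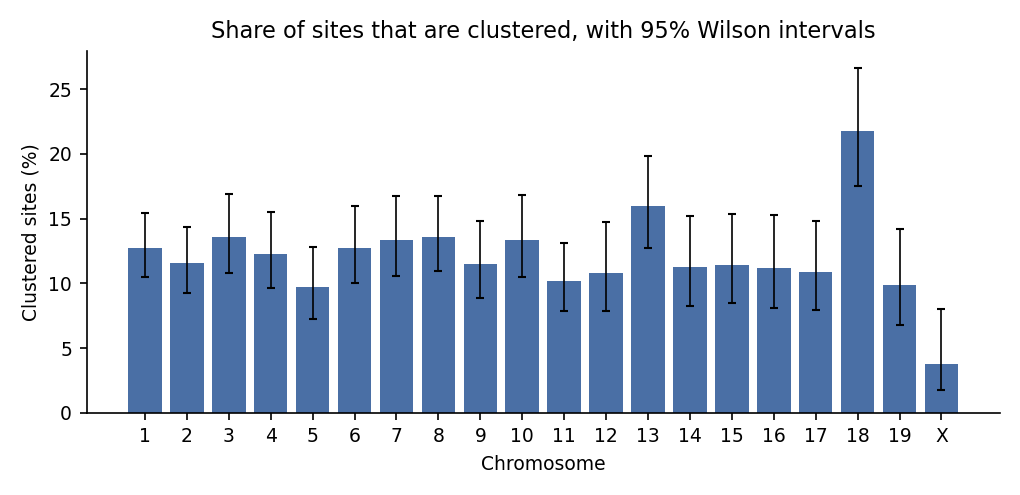
Share of the Wapal-binding sites on each chromosome that are clustered (y axis, percent; bars with 95% Wilson intervals). Chromosome 18 reaches 21.7%, the X chromosome is at 3.77% and the other autosomes lie between 9.68 and 16.0%.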

How the data were processed

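ChIP DNA from 2 FB Wapal clones, 1 BirA line and 1 input was sequenced on an Illumina instrument. Per the labels and methods, the authors used Bowtie on mm9 with reads of a single alignment, and MACS 1.4.2 with input as control at its default p-value of 1e-05. The value deposited for each region is the MACS score, 10 times the negative log10 of its p-value, not normalized between lists. The rule that joined the clones is not given in the sources used here. Reads that align to more than 1 place were dropped, so near-identical copies may lack sites.

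Starting from these lists, regions sharing at least 1 bp with a BirA region were removed, and sites with centres at most 10 kb apart were chained into clusters. Centres were assigned with GENCODE release M1 on NCBIM37 (mm9) to promoters, then exons, introns and extragenic regions. The CTCF core motif was searched in the mm9 sequence, and where a site held several matches the one with the fewest mismatches, then the nearest to the centre, set the strand. The members and gene lists were chosen with earlier results of these data known. Clusters named were the 5 with the most sites, the 5 with the highest lowest score, the 3 closest pairs, the 3 pairs on each side of the limit (1 of those outside it is not reported here), and those near listed genes. Shares have Wilson intervals and medians have exact binomial intervals, at 95%. No test was made, since there is 1 list and its regions are not replicates. Simulated data with known answers were used to test the functions, and 200 of 200 planted motifs were found. The planted motifs were exact and lay in random sequence with no other match. Matches with a mismatch and sites with several matches were therefore not covered. Python 3.11.15 was used with numpy 2.4.6, pandas 2.3.3, scipy 1.17.1, pysam 0.24.0 and matplotlib 3.10.9.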

Additional observations from a re-analysis of the deposited data

How the results depend on the processing

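No paired analysis was possible because both clones share 1 list, which also gave no way to leave out a clone. The lists hold no read counts, so single sites have no known precision. The limits on spacing and score changed the number of members most, by construction. Centres within 5 kb gave 521 clustered sites in 254 clusters, and within 20 kb 1722 in 812. A score of at least 100 gave 134 in 66, with a median score of 135 and a median width of 846.5 bp (846 bp in the other sites), a promoter share of 6.72%, a gene share of 37.3% and a core motif share of 76.1%. The promoter share was 8.83% with centres within 5 kb, 14.5% with BirA regions kept, 6.52% within 1 kb and 19.5% within 5 kb of a TSS, and 7.98% with protein-coding genes alone. This share fell below that of the other sites in separate runs: a score of at least 100, centres within 5 kb, and promoters of 5 kb. It did so without chromosome 18 as well (9.906 against 9.914%), and the cause was not tested. The gene share was 38.7% with protein-coding genes alone. The core motif share was 69.2% with BirA regions kept, 28.4% with no mismatch, 96.0% with at most 2 mismatches and 67.3% in 500 bp around the centre. The same-strand share was 65.4% with centres within 5 kb, 49.5% within 20 kb and 64.1% with a score of at least 100, and exceeded that of pairs farther apart in each. The convergent share stayed within its interval in every alternative that was run, from 4.31 to 8.33%. Those alternatives, and leaving out chromosome 18, were chosen after seeing the data. Of 78 alternative values, 54 stayed within the interval of the reported value or within 1.5 times of the reported count.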

Other observations

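Several genes held more than 1 cluster, which was looked for after the data were seen. Of the 141 protein-coding genes that held a whole cluster, 6 held at least 2. Cdh6, with 4 sites in all, had each of them in a pair. The same was true of Rgnef, with 4 sites over 308 kb. Pde4d, a phosphodiesterase gene of 1504 kb, had 12 sites, 4 of them in clusters, and Rabgap1l had 8 sites, 4 of them in clusters. Pcdha11 had 6 sites, all clustered. Gm20388 had 3 clusters among 24 sites, but it is annotated over 4435 kb and overlaps many other genes.

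Of the other 3 clusters with a site within 10 kb of a BirA region, those nearest to Enpp1 and Txnip had the core motif in both sites and that nearest to Trim60 in 1 of 2. At least 2 matches to the core motif were held by 10.4% of the clustered sites (8.70 to 12.4%) and 10.1% of the other sites (9.43 to 10.8%).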
